A study of Mus musculus with 3 samples.

Results

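Cluster 9 cDC1s are a small state of type 1 conventional dendritic cells (cDC1s) from mouse tumours, labelled by an NF-kB response and marked by Nfkbiz, Dusp2 and Tnfaip3. The members were the cells to which the authors' deposited table of cDC1s gave cluster number 9 among its 12 clusters (numbered from 0, clustering resolution 0.8), and each was matched by library and barcode to the raw counts. They numbered 162 of the 5806 cDC1s in the table, which in turn came from 30209 cell barcodes. The study sequenced single cells of MCA205 LA OVA tumours, a transplanted mouse tumour line carrying an ovalbumin construct, harvested on day 5 from mice 6 to 20 weeks old. Tumours of several mice were pooled for each genotype, and FACS-sorted cDC1s, cDC2s and pre-cDCs were joined in a single library, so that each of the 3 genotypes had 1 library. The groups were WT, sGSN-/- (without secreted gelsolin, an actin-binding plasma protein) and sGSN-/-Clec9a-/- (also without Clec9a, the gene of a cDC1 receptor for the exposed actin of dead cells). Both knockouts were germline losses of the whole mouse and not of its cDC1s alone. The pools mixed males and females unequally, with more males in WT and more females in sGSN-/-Clec9a-/-. Values of the 3 libraries are given in the order WT, sGSN-/-, sGSN-/-Clec9a-/- throughout.

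The WT library held 12763 barcodes with 176578136 UMIs (unique molecular identifiers, 1 per captured RNA molecule), the sGSN-/- library 8173 barcodes with 109270958 UMIs, and the sGSN-/-Clec9a-/- library 9273 barcodes with 113411930 UMIs. Cluster 9 contributed 67 cells with 1041283 UMIs, 40 cells with 554800 UMIs and 55 cells with 675611 UMIs. Its share of the cDC1s was 2.89% (2.25 to 3.66%) in WT, 2.34% (1.67 to 3.17%) in sGSN-/- and 3.09% (2.34 to 4.01%) in sGSN-/-Clec9a-/-, with exact Clopper-Pearson 95% intervals. These intervals overlapped, so no difference in the share was detectable at this depth. All intervals in the text cover counting error only, since 1 library a genotype leaves the spread between mice unmeasured. Pairs of libraries shared 26, 28 and 27 barcode sequences, of which 2, 2 and 3 were cDC1s in both libraries and 0 involved cluster 9. A cluster 9 cell held a median of 14033 UMIs and 3028 genes, against 13480.5 UMIs and 2949 genes in the other 5644 cDC1s. The median mitochondrial share was 1.71% in cluster 9 and 1.69% in the others. Doublet scoring marked 0 of the 162 cells, which allows a share of up to 1.85%, and 85 of the other cDC1s (1.51%). Cluster 9 thus resembled the remaining cDC1s in depth, gene number and mitochondrial share.

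NF-kB factors are dimers of Rel-family proteins that inhibitor proteins of the IkB family hold in the cytoplasm. Signals from Toll-like receptors, TNF family receptors and the IL-1 receptor release them to the nucleus, where they switch on inflammatory, survival and costimulatory genes together with their own inhibitors. In dendritic cells the pathway takes part in maturation, in which the cells gain costimulatory molecules, cytokines and the lymph node homing receptor Ccr7.

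The label was checked against its markers and those of other cells. Levels are given as CPM, the UMIs of a gene divided by all UMIs of a group of cells within a library and scaled to a common total. Nfkbiz (ENSMUSG00000035356, chr16:55811375-55838899 of GRCm38) encodes a nuclear IkB protein that helps NF-kB to induce a subset of its targets. Its level in cluster 9 was 376, 494 and 437 CPM, against 27.8, 24.3 and 26.3 CPM in the other cDC1s. Dusp2 (ENSMUSG00000027368, chr2:127336159-127338376), a nuclear phosphatase of MAP kinases, stood at 878, 741 and 728 CPM against 53.7, 61.1 and 49.5 CPM. For Tnfaip3 (ENSMUSG00000019850, chr10:19000910-19015657), the ubiquitin-editing enzyme A20 that restrains NF-kB signalling, the levels were 348, 420.0 and 443 CPM against 49.4, 43.0 and 39.6 CPM. Each of the 3 markers was far higher in every cluster 9 library than in every library of the other cDC1s, and no other cluster from 0 to 10 reached its lowest cluster 9 value. As summed levels, the 3 markers came to 1602, 1655 and 1607 CPM, against 539, 431 and 437 CPM for cluster 8, the next highest of these clusters. The study named these markers from the same counts, so their levels describe the cluster and do not test the label.

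Markers of the cDC1 lineage were present at the level of the other cDC1s. The 12 cDC1 markers summed to 6065, 6606 and 6248 CPM against 5748, 5566 and 5617 CPM, 12 of 12 were above the filter on low values and 0 of 12 were called as different by the rule given for the comparisons. Naaa, a lysosomal amidase, was the most abundant of them at 1628 ± 161 CPM (SD, n = 3 libraries). Markers of the other sorted cells, and of plasmacytoid dendritic cells, which were not sorted, summed to less than in the other cDC1s. The 7 cDC2 markers (3 above the filter) summed to 47.1, 41.5 and 48.8 CPM against 63.3, 62.0 and 60.3 CPM, led by Clec10a, and Cd209a alone was called, as lower. The resting cDC1s (clusters 0, 2, 3, 5 and 6) held less of these cDC2 markers than cluster 9, at 29.2, 26.3 and 25.6 CPM. Cluster 4, among the other cDC1s, held far more, at 337, 275 and 348 CPM, as did cluster 10, at 142, 516 and 107 CPM. The 5 pre-cDC markers (1 above it) gave 157, 168 and 170.2 CPM against 210.2, 202 and 200.2 CPM, nearly all from Flt3, a cytokine receptor that cDC1s carry themselves. The 6 plasmacytoid dendritic cell markers (1 above it) gave 189, 265 and 213 CPM against 318, 357 and 330.5 CPM, almost all of it Bst2, while Klk1 and Ly6d were at 0.

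Transcripts of other lineages outside the sort were scarce by the same measure. The 7 NK cell markers summed to 37.5, 63.1 and 44.4 CPM in cluster 9 against 74.9, 127 and 85.2 CPM, with Klrd1 the most abundant and lower, and Prf1 at 0. The 7 T cell markers gave 3.84, 7.21 and 5.92 CPM against 3.07, 7.30 and 3.13 CPM, with Trac the most abundant and Cd28 at 0. The 5 B cell markers gave 101, 93.7 and 112 CPM against 104, 100.4 and 106 CPM, nearly all from Ighm, while Cd79a and Ms4a1 were at 0. Phagocytes and stromal cells left few transcripts as well. The 9 monocyte or macrophage markers gave 61.5, 36.0 and 44.4 CPM against 83.7, 48.9 and 63.9 CPM, led by Apoe, with Mertk and Ms4a7 at 0. The 5 neutrophil markers gave 0, 3.60 and 0 CPM against 0.411, 0.348 and 0.144 CPM, from 2 UMIs of Csf3r, with S100a8, S100a9, Retnlg and Cxcr2 at 0. The 6 tumour or fibroblast markers were higher in WT and sGSN-/- and still scarce, at 10.6, 7.21 and 1.48 CPM against 2.28, 3.82 and 2.26 CPM, led by Sparc with Col1a1 and Col5a2 at 0. Of these NK, T, B, monocyte, neutrophil and fibroblast markers, 2, 0, 1, 1, 0 and 0 were above the filter against the other cDC1s, and Klrd1 alone was called. The 6 proliferation markers summed to 66.3, 61.3 and 57.7 CPM against 24.2, 30.9 and 25.3 CPM. That difference rested on Mki67, a proliferation antigen, at 49.9, 41.5 and 41.4 CPM against 7.90, 10.3 and 7.60 CPM, since Mki67 was the only 1 of the 6 above the filter. Mki67 passed the filter through cluster 9, and its libraries overlapped those of cluster 8, where its mean was 31.3 CPM. Top2a, the topoisomerase of dividing cells, stood at a mean of 8.21 CPM against 5.58 CPM.

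Against the other cDC1s, cluster 9 cells were set apart by genes of the NF-kB response, by Tnf and by adhesion or costimulatory ligands. Some immediate early genes were higher too. Lower were Ccl3, Ccl4, 4 interferon-stimulated genes and 7 members of the Ccr7 programme, Ccl5 among them. Of these, Ccl4, Isg15, Ifi47 and Serpinb9 each lost the call when a library was left out. Of the chemokines, Cxcl2, Cxcl9 and Cxcl10 were higher, but with equal weight of the other clusters Cxcl9 reversed (-0.88) and Cxcl10 (0.04) and Cxcl2 (0.65) were not called. Nfkbiz was 16.8-fold, Dusp2 14.6-fold, Tnf 12.7-fold and Nfkbia 7.54-fold higher than in the other cDC1s. Fold changes come from an edgeR fit of the 3 library sums of cluster 9 and the 3 of the other cells, given on the log2 scale with the standard error (SE) of the fit. A gene was called when its fitted fold was at least 2 and its 3 cluster 9 libraries did not overlap the 3 of the other group. Of 6441 genes with a mean of at least 10 CPM over the 6 sums, 113 (1.75%) were called higher and 74 (1.15%) lower in cluster 9. Because the clusters were drawn from the same counts, these differences describe the cluster and carry no p-value, and nothing is read from the counts of called genes. The filter takes the mean of both groups, so that a gene scarce in a group passes through the other, and the counts and medians of all lists in every comparison follow in part from this. The median log2 fold change of all genes was 0.00.

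Of the NF-kB subunits themselves only Nfkb1 was called. All 5 were above the filter, 1 was called higher and 0 lower, and their median log2 fold change was 0.92. Nfkb1, which encodes the precursor of a DNA-binding NF-kB subunit, stood at 247, 314 and 218 CPM against 88.5, 90.2 and 84.7 CPM, a log2 fold change of 1.57 ± 0.11 (SE). The cluster 9 libraries were all above the others and sGSN-/- was the highest. Rel, the subunit c-Rel and the most abundant of the 5, stood at 734, 912 and 528 CPM against 394, 409 and 337 CPM. Its libraries did not overlap either, but the log2 fold change of 0.94 ± 0.14 was short of the 2-fold mark. Nfkb2 (0.92 ± 0.12) and Relb (0.92 ± 0.24), the pair of the alternative pathway, and Rela (0.74 ± 0.11), the main transactivating subunit, were likewise short of it on the log2 scale.

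Inhibitors and feedback regulators of the pathway were higher in part. All 14 listed were above the filter, 8 were called higher and 0 lower, with a median log2 fold change of 1.24, and 2 of the 8, Nfkbiz and Tnfaip3, are markers of the label. Nfkbia (ENSMUSG00000021025, chr12:55489410-55492647), the classical IkB protein that retains NF-kB in the cytoplasm, stood at 2149, 1945 and 1662 CPM against 262, 293 and 221 CPM. Its log2 fold change was 2.91 ± 0.11, beside 4.07 ± 0.11 for Nfkbiz and 3.21 ± 0.11 for Tnfaip3. WT was the highest of the cluster 9 libraries for Nfkbia and the lowest for Nfkbiz and Tnfaip3. Zc3h12a, a ribonuclease that degrades inflammatory mRNAs, was at 60.5, 99.1 and 66.6 CPM against 16.2, 18.2 and 17.8 CPM (2.09 ± 0.17). Birc3, a ubiquitin ligase of TNF receptor signalling, was at 112, 112 and 123 CPM against 33.3, 30.1 and 30.1 CPM (1.91 ± 0.10). Nfkbid, another nuclear IkB protein, was at 221, 182 and 186 CPM against 59.8, 49.2 and 63.0 CPM (1.81 ± 0.13). In these 3 genes the lowest cluster 9 library exceeded the highest library of the other cDC1s by a wide margin. Tnip3, a partner protein of A20, ranged more widely, at 33.6, 114 and 62.2 CPM against 24.4, 31.7 and 19.3 CPM (1.36 ± 0.32), and Traf1, an adaptor of TNF receptors, was at 279, 335 and 249 CPM against 126, 156 and 118 CPM (1.12 ± 0.12). When each other cluster was given equal weight, in place of its share of cells, Tnip3 (0.04) and Traf1 (0.52) were no longer called, and the value fell for Birc3 to 1.28 and for Dusp2 from 3.87 to 3.25. The remaining 6 members were Nfkbib (0.86), Nfkbie (0.63), Bcl3 (0.59), Tnip1 (0.88), Tnip2 (0.17) and Cyld (-0.21), none of them called.

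Receptors, adaptors and kinases upstream of NF-kB showed little difference. Of 25 listed, 20 were above the filter, with Ikbkg, Ikbke, Irak3, Tlr4 and Tlr9 below it, and 1 was called higher and 1 lower, with a median log2 fold change of 0.17. Cd40, the receptor through which T cells license dendritic cells, stood at 35.5, 88.3 and 50.3 CPM against 25.3, 30.6 and 22.3 CPM (1.07 ± 0.25). Its call rested on the sGSN-/- library, without which the value was 0.83, and with equal weight of the other clusters the sign turned to -0.07. Tnfrsf1b, a TNF receptor, was at 12.5, 12.6 and 11.8 CPM against 32.2, 29.5 and 27.2 CPM (-1.24 ± 0.20). Its mean was the lowest of the clusters 0 to 10 in cluster 9, with libraries that overlapped those of cluster 10. Tlr3, the endosomal sensor of double-stranded RNA and the most abundant of the list, was alike in both groups, at 155, 162 and 185 CPM against 169.6, 161 and 179 CPM (-0.01 ± 0.10). The kinases Ikbkb (-0.17), Chuk (0.16), Map3k14 (0.25) and Map3k7 (0.51) and the adaptor Myd88 (0.35) had small values on the log2 scale. So had Traf2 (0.26), Traf3 (0.37), Traf6 (-0.06), Tab2 (-0.02), Tbk1 (0.12), Irak1 (0.13), Irak2 (0.38), Irak4 (-0.17), Ripk1 (0.19), Tnfrsf1a (-0.34) and Ltbr (0.22), while Tlr2 (0.80 ± 0.30) was short of the 2-fold mark.

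**Figure D1:**
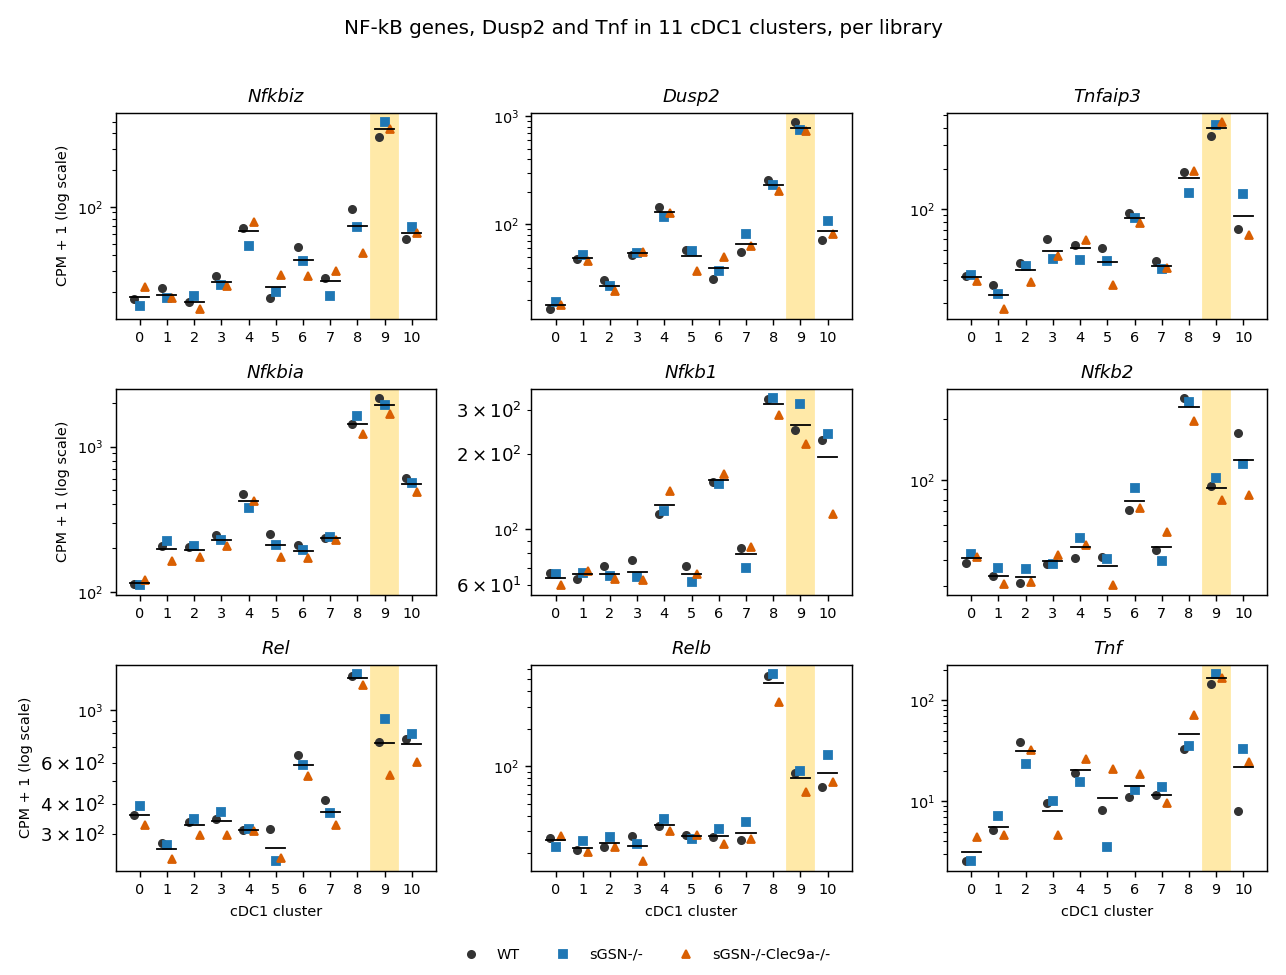
Levels of 9 NF-kB response genes in cDC1 clusters 0 to 10, in CPM + 1 on a logarithmic axis, with 1 symbol for each of the 3 genotype libraries, a black line at their mean and cluster 9 shaded. Nfkbiz, Dusp2, Tnfaip3, Nfkbia and Tnf were highest in cluster 9 in every library, whereas the means of Nfkb1, Nfkb2, Rel and Relb were highest in cluster 8.

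Tnf and ligands presented to T cells accompanied these regulators. Tnf, the cytokine whose receptors themselves activate NF-kB, was at 145, 180.2 and 167 CPM against 13.0, 10.9 and 14.9 CPM (3.67 ± 0.15). It was the only 1 called among the 7 of 16 cytokines above the filter, whose median was 0.499. Il1b, the most abundant cytokine of the list, was at 3063, 3219 and 2051 CPM against 2247, 2140.5 and 1725 CPM, and these libraries overlapped. Icam1, an adhesion molecule bound by T cell integrins, was at 589.7, 553 and 546 CPM against 84.3, 76.3 and 83.7 CPM (2.81 ± 0.09). Tnfsf9, a TNF family ligand that costimulates T cells, was at 136, 129.8 and 132 CPM against 23.4, 17.9 and 18.9 CPM (2.75 ± 0.13). Both were narrow in cluster 9, with its 3 libraries close together and well above the others. With Cd40 they made 3 of the 10 costimulatory and inhibitory ligands above the filter, of 13 listed, that were called higher, with 0 lower and a median of 0.30. Cd83, the most abundant of them and a surface marker of mature dendritic cells, was at 1174, 1332 and 1115 CPM against 772, 759 and 763 CPM (0.68 ± 0.08), and Cd86, a costimulatory ligand, overlapped between the groups (0.06 ± 0.12). Cd274, an inhibitory ligand of T cells, was not called either (-0.76 ± 0.40).

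Other genes with the largest positive differences were Sdc4, Phlda1 and Marcksl1. Sdc4, the cell surface proteoglycan syndecan, varied most of the 3 between libraries, at 91.2, 153 and 38.5 CPM against 5.78, 7.35 and 5.58 CPM (3.90 ± 0.32), and fell to 2.07 with equal weight of the other clusters. Sdc4 passed the filter through cluster 9 alone. Phlda1, a pleckstrin homology-like protein, was at 426, 306 and 277 CPM against 53.5, 43.8 and 35.8 CPM (2.97 ± 0.16). Marcksl1, an actin- and membrane-binding protein, was at 563, 436 and 409 CPM against 98.7, 86.2 and 73.8 CPM (2.48 ± 0.13). For all 3 genes even the lowest cluster 9 library was above every library of the other cDC1s.

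Immediate early genes, which cells transcribe within minutes of a stimulus, were raised in part. Of 23 listed, 22 were above the filter, 5 were called higher and 0 lower, with a median of 0.49. Ier2 was at 1677, 1369.9 and 1474 CPM against 558, 558 and 572 CPM (1.45 ± 0.09), and Jun, a subunit of the AP-1 transcription factor, at 1929, 1336 and 1342 CPM against 709, 608 and 575 CPM (1.31 ± 0.13). The others called were Egr3 (1.28 ± 0.12), Fosb (1.10 ± 0.09) and Zfp36 (1.12 ± 0.09), the last an RNA-binding protein that destabilises Tnf mRNA. Egr1, a zinc finger factor named by its rank and not on the list, was at 3039.5, 2150.3 and 2146 CPM against 634, 607 and 686 CPM (1.95 ± 0.13). WT was the highest cluster 9 library for Jun, Egr1 and Ier2, while no library overlapped the other cDC1s. Fos, the most abundant of the list, had a smaller difference, at 4399, 3654 and 3469 CPM against 2924, 2545 and 2739 CPM (0.51 ± 0.10). Among 11 of 13 dual-specificity phosphatases above the filter, Dusp2 (3.87 ± 0.10) was the only 1 called, the median was 0.23, and the abundant Dusp1 had 0.41 ± 0.12. Among 11 of 13 heat shock chaperones above it, Dnajb1, a co-chaperone, was the only 1 called, at 811, 389 and 342 CPM against 204, 129 and 118 CPM (1.84 ± 0.27), with a list median of 0.65. The WT library was the highest for Dnajb1 in both groups of cells. Hspa8, the most abundant chaperone, overlapped (0.17 ± 0.10).

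Some survival genes were also higher. Of 17 members of the list of BCL2 family and survival genes, 16 were above the filter, 5 were called higher and 0 lower, with a median of 0.70. Gadd45b, a stress-induced protein, was at 774, 849 and 817 CPM against 228, 251 and 229 CPM (1.80 ± 0.08). Bcl2a1a (1.60 ± 0.11), Bcl2a1b (1.97 ± 0.14) and Bcl2a1d (1.30 ± 0.09) are near-identical copies of an anti-apoptotic gene, between which short reads are hard to assign, and are not 3 separate measurements. Birc3, named above, was the fifth. With equal weight of the other clusters Bcl2a1b fell to 1.18. Mcl1, the most abundant anti-apoptotic gene of the list, was at 1355, 1189.6 and 1159 CPM against 825, 792 and 674 CPM (0.72 ± 0.09), short of the 2-fold mark.

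Chemokines went both ways. Of 15 listed, 14 were in the count matrix and 11 above the filter, 3 were called higher and 3 lower, with a median of -0.65. Cxcl10, which attracts activated T cells, was at 191, 281 and 172 CPM against 43.9, 53.6 and 80.5 CPM (1.85 ± 0.24), and Cxcl9, a ligand of the same receptor, at 227, 539 and 231 CPM against 126, 158 and 154 CPM (1.15 ± 0.24). The sGSN-/- library was the highest for both, and without it Cxcl9 was at 0.73 and no longer called. Cxcl2, a neutrophil attractant, was at 101, 57.7 and 112 CPM against 36.0, 36.3 and 45.0 CPM (1.28 ± 0.20). With equal weight of the other clusters, which gives cluster 10 and its high Cxcl9 more influence, Cxcl9 turned to -0.88, and Cxcl10 (0.04) and Cxcl2 (0.65) were not called. Ccl5, a T cell attractant, was the lower one with the largest difference, at 5.76, 25.2 and 16.3 CPM against 103, 207 and 62.5 CPM (-3.14 ± 0.64, or -4.18 with equal weights). Ccl3 was at 26.9, 7.21 and 7.40 CPM against 52.6, 44.7 and 47.0 CPM (-1.55 ± 0.29, or -2.63 without WT). Its mean was lowest in cluster 9 of the clusters 0 to 10, but the libraries overlapped with those of clusters 10, 4, 1, 3 and 0. Ccl4, the most abundant chemokine of the list, was at 503, 634 and 339 CPM against 1060.4, 997 and 1003 CPM (-1.04 ± 0.15, or -0.84 without sGSN-/-Clec9a-/-, where the call ended). Irf1, an interferon-response factor, was the other member called in the Cxcl9 programme (1.45 ± 0.10, or 0.36 and not called with equal weights). Of the 12 genes of that programme, 6 were above the filter, 3 were called higher (Cxcl9, Cxcl10 and Irf1) and 0 lower, with a median of 0.45. Serpina3g, a serine protease inhibitor of the programme, came almost wholly from the sGSN-/- library, at 0.960, 37.9 and 0 CPM.

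Part of the Ccr7 programme of migratory dendritic cells was lower in cluster 9. Of 21 listed, 17 were above the filter, 7 were called lower and 2 higher, with a median of -0.94, and Ccr7, Fscn1, Cd63 and Cacnb3 passed the filter through the other cDC1s alone. Ccr7, the receptor that guides dendritic cells to lymph nodes, was at 0, 5.41 and 2.96 CPM against 80.0, 136 and 31.1 CPM (-5.19 ± 1.27, from -4.33 without WT to -5.80 without sGSN-/-Clec9a-/-). Fscn1, an actin-bundling protein of their dendrites, had 0 UMIs in cluster 9 against 35.9, 48.8 and 11.7 CPM, so that it was at least 25.1-fold lower by the floor of 3 UMIs over the group. The other members called lower were Ccl5, Samsn1 (-1.73 ± 0.40, or -2.57 with equal weights), an adaptor protein, Cd63 (-2.81 ± 1.07, or -2.05 without sGSN-/-), a tetraspanin, Cacnb3 (-1.98 ± 0.73, or -2.85 with equal weights), a calcium channel subunit, and Serpinb9 (-1.23 ± 0.45), a granzyme inhibitor. Serpinb9 lost its call without sGSN-/- (-0.94) and had -2.22 with equal weights. Marcksl1 and Tbc1d4, a regulator of vesicle traffic (1.25 ± 0.10, or 0.84 and not called with equal weights), were the 2 higher members. Marcks, the most abundant of the list, was not called (0.87 ± 0.07). Il12b, a subunit of the cytokine IL-12, overlapped between the groups, at 32.7, 162 and 62.2 CPM against 84.3, 123 and 34.0 CPM (-0.05 ± 0.54). The 255 cells of cluster 8 hold most of this programme among the other cDC1s, so these values describe the distance from that cluster, which is compared on its own.

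Some interferon-induced genes and some genes of early cDC1s were lower as well. Of 16 type I interferon-stimulated genes, 15 were in the matrix and 11 above the filter, 0 were called higher and 4 lower, with a median of -0.73. Isg15, a ubiquitin-like modifier, was at 52.8, 155 and 118 CPM against 199.969, 268 and 201 CPM (-1.11 ± 0.25), and Ifit2, which binds viral RNA, at 6.72, 19.8 and 16.3 CPM against 29.4, 46.2 and 36.8 CPM (-1.51 ± 0.38). The others were Ifit3 (-2.23 ± 0.66) and Ifi47 (-1.30 ± 0.41), a GTPase, while Trim30a, the most abundant of the list, was not called (0.15 ± 0.08). WT was the lowest cluster 9 library for all 4, and without it Isg15 (-0.78) and Ifi47 (-0.65) were no longer called and Ifit3 moved to -1.54, while without sGSN-/-Clec9a-/- Ifi47 was at -1.96. Of 10 early cDC1 genes, all above the filter, 3 were called lower and 0 higher, with a median of -0.59. These were Ifitm1 (58.6, 46.9 and 29.6 CPM against 253, 268 and 230.2 CPM, -2.40 ± 0.15) and Ifitm2 (-1.14 ± 0.09), membrane proteins that restrict viral entry, and S100a4 (44.2, 41.5 and 44.4 CPM against 148, 145 and 146 CPM, -1.72 ± 0.11), a calcium-binding protein. Crip1, the most abundant of the list, was alike in both groups (0.03 ± 0.11). Further genes with the largest negative differences were Fdps (-2.24 ± 0.26), an enzyme of isoprenoid synthesis, Plac8 (-1.80 ± 0.17), Klrd1 (-1.40 ± 0.22), an NK cell receptor chain, Gpr171 (-1.28 ± 0.15), a G protein-coupled receptor, Il1r2 (-1.24 ± 0.22), a decoy receptor of interleukin signals, and Vps37b (-1.16 ± 0.17), a membrane-sorting protein. Without WT, Il1r2 (-0.95) and Vps37b (-0.84) were not called. Against the resting cDC1s, compared on their own below, 0 interferon-stimulated genes (median 0.28) and 0 early cDC1 genes (median -0.19) were called. Ifit3 was below the filter there.

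Antigen presentation and general genes differed little. Of 11 genes of MHC class II presentation and 14 of MHC class I processing, all were above the filter and 0 were called in either direction, with medians of 0.02 and 0.11. H2-Ab1, a class II chain, was at 10146, 10969.7 and 10254 CPM against 10234, 10321 and 10634 CPM, and H2-D1, a class I heavy chain, at 1953, 2035 and 1818 CPM against 1590.2, 1618 and 1534 CPM (0.31 ± 0.08). Of genes that mark other cDC1 clusters, the histone gene H2afz (-0.19 ± 0.09), the lysozyme gene Lyz2 (-0.03 ± 0.09), the chaperone Hspa5 (0.65 ± 0.08), Creld2 (0.17 ± 0.13) and Isg20 (-0.66 ± 0.33) were not called, nor was the chemokine Cxcl16 (0.27 ± 0.15).

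**Figure D2:**
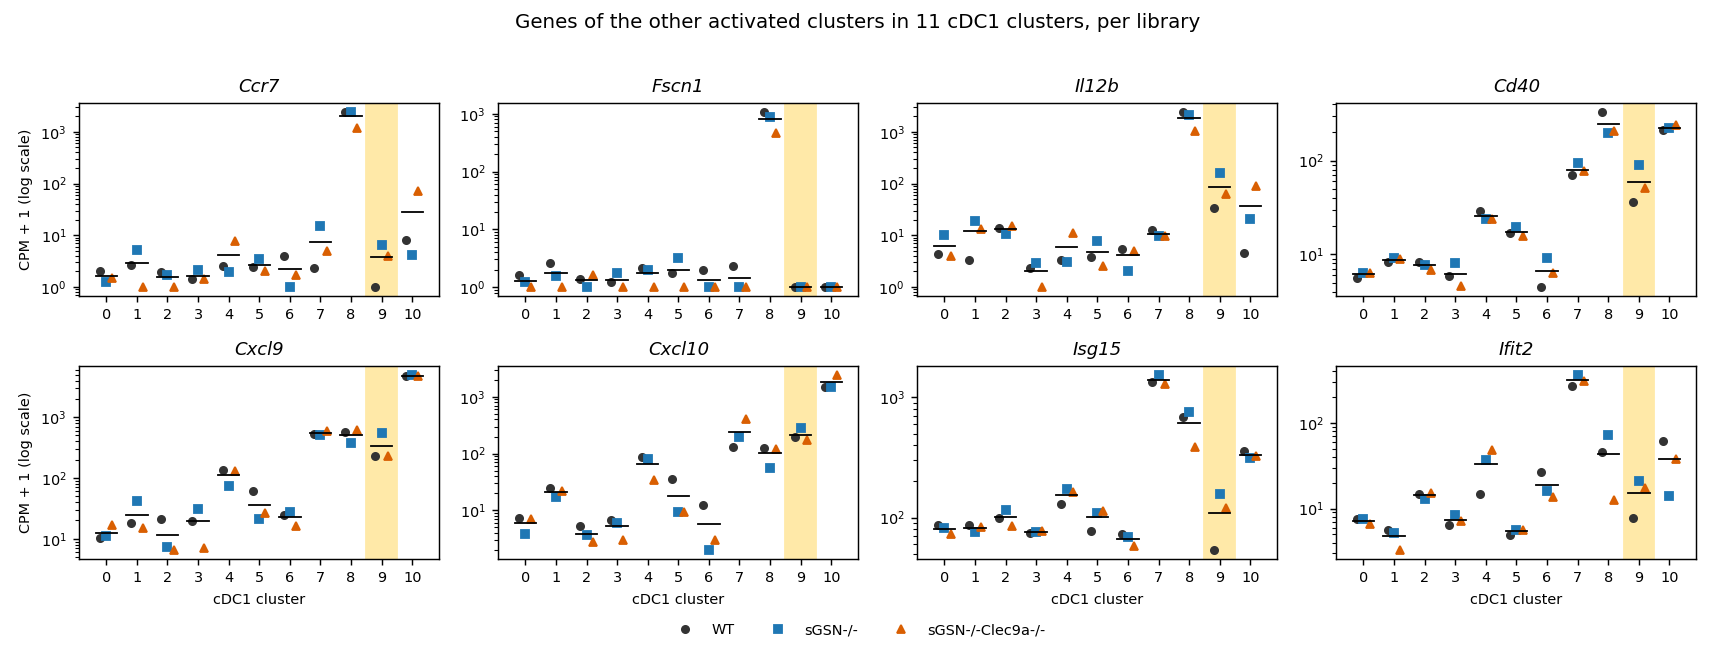
Levels of 8 genes of the Ccr7, Cxcl9 and interferon programmes in cDC1 clusters 0 to 10, in CPM + 1 on a logarithmic axis, with 1 symbol for each of the 3 genotype libraries, a black line at their mean and cluster 9 shaded. Cluster 9 was far below cluster 8 for Ccr7 and Fscn1, which peaked there, between the extremes for Cxcl9 and Cxcl10, which peaked in cluster 10, and far below cluster 7 for Isg15 and Ifit2.

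Cluster 8, the state with Ccr7 and Il12b, held more of 3 NF-kB subunits than cluster 9 but less Nfkbiz, Dusp2, Tnfaip3 and Tnf, and less of 11 of 21 immediate early genes. Of 6406 genes kept, 644 (10.1%) were called higher and 782 (12.2%) lower in cluster 9, around a median of 0.01 for all genes. TMM scaling shifted this comparison by 0.17 on the log2 scale, and values are relative to that shift. By library size alone 818 genes were higher and 677 lower. The cells of cluster 8 were shallower, at a median of 10867 UMIs, and the part of depth in the differences was described only by thinning every cell to 3900 UMIs.

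Nfkbiz was at 376, 494 and 437 CPM, against 95.9, 67.7 and 40.8 CPM for cluster 8 (2.45 ± 0.21), Dusp2 at 254, 231 and 204 CPM for cluster 8 (1.60 ± 0.14) and Tnf at 32.0, 34.6 and 69.9 CPM for cluster 8 (1.80 ± 0.25). Tnfaip3, at 189, 131 and 192 CPM in cluster 8, was only just past the 2-fold mark (1.09 ± 0.17) and short of it without sGSN-/- (0.92) or after thinning (0.85). Nfkbia was nearly level, at 1425, 1623 and 1211 CPM in cluster 8 (0.27 ± 0.14). The 3 markers of the label were thus higher in cluster 9 to unequal degrees. Of the 5 subunits, 0 were higher and 3 lower in cluster 9, with a median of -1.07. These were Relb, at 87.4, 90.1 and 60.7 CPM against 529.9, 547 and 329.9 CPM (-2.73 ± 0.20), Nfkb2 (-1.52 ± 0.16) and Rel (-1.07 ± 0.16), the last not called without sGSN-/-Clec9a-/- (-0.92) or by library size (-0.90). Nfkb1 overlapped (-0.46 ± 0.15). Of the 14 inhibitors and feedback genes, Nfkbiz and Tnfaip3 were higher and 5 lower, with a median of -0.22. The 5 were Nfkbib (-1.46), Nfkbie (-1.46), Tnip1 (-1.68), Tnip3 (-2.00) and Traf1 (-1.85). Of 20 upstream genes, 2 were higher and 7 lower, with a median of -0.32. Tlr3 (155, 162 and 185 CPM against 23.3, 20.5 and 31.0 CPM, 2.65 ± 0.21) and Myd88 (1.71 ± 0.18) were the higher ones, and Cd40 (-2.31 ± 0.27), Tnfrsf1b (-2.52), Map3k14 (-2.29), Ikbkb (-1.10), Traf2 (-1.55), Traf3 (-1.79) and Traf6 (-1.81) the lower ones.

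Of 21 immediate early genes above the filter, 11 were higher and 1, Nr4a3, was lower in cluster 9, with a median of 1.05. Fos was at 4399, 3654 and 3469 CPM against 937, 819 and 1176 CPM (1.81 ± 0.16), Jun at 253, 199 and 256 CPM in cluster 8 (2.55 ± 0.18) and Egr1 at 133, 92.9 and 87.3 CPM (4.38 ± 0.20), the largest positive difference among called genes at 50 CPM or more. Egr3 (2.59 ± 0.28), Phlda1 (2.63 ± 0.25) and Fcrla (2.80 ± 0.30), an Fc receptor-like protein, were with Tlr3 the next largest. Of the 11 heat shock chaperones, 5 were higher and 0 lower (median 1.14), among them Dnajb1 (2.45 ± 0.28), Hspa5 (1.14 ± 0.14) and Hspa1a (1.34 ± 0.30). Of the 11 phosphatases, 2 were higher and 2 lower (median 0.52). Creld2 (1.18 ± 0.22) and Lyz2 (1.08 ± 0.29, or 0.77 without sGSN-/-, where its call ended) were also higher. Immediate early genes and chaperones thus had, leaving out the marker lists, the highest medians of the gene lists against cluster 8.

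All 21 genes of the Ccr7 programme were above the filter, 19 were lower in cluster 9 and 0 higher, with a median of -5.67. Members such as Fscn1, Ccr7, Socs2, Il4i1 and Anxa3 passed the filter through cluster 8 alone, so this count and median follow in part from the filter. Ccr7 was at 0, 5.41 and 2.96 CPM against 2412, 2424 and 1166 CPM (-9.88 ± 0.45, from -8.91 without WT to -10.53 without sGSN-/-). Genes with 0 UMIs in cluster 9 were lower by at least 662-fold for Fscn1, 117-fold for Tnfrsf4, a T cell costimulatory receptor, and 102-fold for Flrt3, an adhesion protein, by the floor of 3 UMIs over the group. Socs2, a cytokine signalling suppressor, had 1 UMI in cluster 9 and 716 in cluster 8, a ratio of 0.00173 (4.38e-05 to 0.00968) with its exact 95% interval. Il12b was at 32.7, 162 and 62.2 CPM against 2434, 2087 and 1048 CPM (-4.70 ± 0.42, from -4.02 without WT to -5.38 without sGSN-/-). Ccl5 (-7.76), Cd63 (-7.50), Cacnb3 (-6.42), Samsn1 (-5.96), Serpinb9 (-5.67), Il15ra (-4.25), Cxcl16 (-2.28) and Tbc1d4 (-1.55) were lower too. Marcks (-0.70) and Marcksl1 (-0.72) were the 2 members not called. Ccr7, Fscn1 and Il12b were far apart between the clusters in every library, though Il12b was not absent from cluster 9.

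Costimulatory and inhibitory ligands were mixed. Of 12 above the filter, 2 were higher in cluster 9, Icam1 (1.16 ± 0.15) and Cd48, and 7 lower, with a median of -1.82. Cd274 was at 11.5, 10.8 and 23.7 CPM against 327, 372 and 223 CPM (-4.52 ± 0.27), and Cd40, Cd80, Cd86 (-1.33), Pdcd1lg2, Cd70 and Cd200 were the other lower ones, Cd70 with 0 UMIs in cluster 9 and at least 35.2-fold lower. Cd70 and Pdcd1lg2 passed the filter through cluster 8 alone, as did Gbp4 and Gbp5 of the Cxcl9 programme. Tnfsf9 was nearly level (0.19 ± 0.15). Of 7 cytokines, Tnf and Il18 were higher and Il12b and Il15 lower (median 0.34), and of 12 chemokines 1 was higher and 5 lower (median -1.28). Of 13 interferon-stimulated genes, 0 were higher and 7 lower (median -1.91), among them Isg15 (-2.71 ± 0.30), Irf7 (-1.63 ± 0.29) and Ifi47 (-1.72 ± 0.46), the last at -0.92 and not called without WT, and at -2.43 without sGSN-/-Clec9a-/-. Of 9 genes of the Cxcl9 programme, 0 were higher and 5 lower (median -1.81), of 16 survival genes 1 was higher and 5 lower (median -0.61), and of 10 early cDC1 genes 0 were higher and 5 lower (median -0.94). Ifitm2, among the last, was not called without sGSN-/-Clec9a-/- (-0.85). MHC class II presentation had 3 of 11 higher and 0 lower (median 0.44), and MHC class I processing 1 of 14 higher and 3 lower (median -0.43). Of the 12 cDC1 markers, 6 were higher and 1, Id2, was lower (median 1.02). In the marker lists of other cells, Ighm was higher, Bst2 and Klrd1 were lower, and the remaining members above the filter were not called. Summed monocyte or macrophage markers reached 576, 55.1 and 71.8 CPM in cluster 8, led by Apoe and high in its WT library, and their part in the differences was not tested.

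Cluster 7, the interferon-stimulated state, held far more of the interferon-stimulated genes for which it is named, while 8 of 14 NF-kB feedback genes were higher in cluster 9. Of 6336 genes kept, 202 (3.19%) were called higher and 303 (4.78%) lower in cluster 9, around a median of 0.01 for all genes. Of 14 interferon-stimulated genes above the filter, 14 were lower in cluster 9, with a median of -3.59. Members scarce in cluster 9, such as Ifit1, Oasl2 and Cmpk2, passed the filter through cluster 7 alone, so this count and median follow in part from the filter and the choice of cluster 7. Isg15 was at 52.8, 155 and 118 CPM against 1341, 1542 and 1299 CPM (-3.82 ± 0.22), Ifit2 at 267, 364 and 309 CPM in cluster 7 (-4.65 ± 0.24), Irf7, the interferon-induced regulator, at 1064, 1289.6 and 1029.9 CPM (-3.19 ± 0.20) and Isg20 at 289, 309 and 321 CPM (-3.39 ± 0.24). The 5 largest negative differences at 50 CPM or more were Ifit3 (-5.46 ± 0.35), Ifit2, Ms4a4c (-4.43 ± 0.23), Ly6a (-4.25 ± 0.31) and Ifi47 (-4.06 ± 0.29). Of these, Ifit3 ranged from -4.71 without WT to -6.85 without sGSN-/-Clec9a-/-, Ifi47 from -3.34 to -4.77 in the same way, and Ly6a was at -3.61 without WT. No library of cluster 9 reached any library of cluster 7 for these genes.

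Some of the NF-kB subunits and feedback genes ran the other way. Of the 5 subunits, Nfkb1 (1.66 ± 0.14) and Relb (1.45 ± 0.19) were higher and 0 lower (median 0.94). Of the 14 inhibitors and feedback genes, 8 were higher and 0 lower (median 1.44). Nfkbiz stood at 25.0, 17.5 and 28.5 CPM in cluster 7 (4.15 ± 0.16), Tnfaip3 at 39.9, 35.0 and 35.3 CPM (3.39 ± 0.14) and Nfkbia at 235, 237 and 225 CPM (2.99 ± 0.11). The other 5 were Nfkbid (1.58), Zc3h12a (2.14), Birc3 (2.11), Tnip3 (2.26, or 1.63 without sGSN-/-) and Tnip1 (1.30, or 0.78 and not called without WT). Tnf (3.86 ± 0.17), Dusp2 (3.53 ± 0.14) and Phlda1 (3.31 ± 0.18) were with Nfkbiz and Tnfaip3 the 5 largest positive differences among called genes at a mean of 50 CPM or more over the 6 sums, and Sdc4 (4.06 ± 0.42), below that level, was higher too. Icam1 (2.99 ± 0.12) and Tnfsf9 (2.95 ± 0.25) were higher as well, whereas Cd40 overlapped (-0.60 ± 0.23).

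The remaining lists went in both directions against cluster 7. Of 20 upstream genes, 1, Tlr2 (1.17 ± 0.36), was higher and 1, Tnfrsf1b (-1.03 ± 0.28, or -0.88 and not called without WT), was lower (median 0.11). Dusp2 was the only 1 of 10 phosphatases called (median 0.29) and Dnajb1 the only 1 of 11 chaperones (median 0.22). Of 22 immediate early genes, 4 were higher and 0 lower (median 0.49), among them Jun (1.03 ± 0.16), which was not called without WT (0.84) or without sGSN-/-Clec9a-/- (0.93). Of 9 costimulatory and inhibitory ligands, 2 were higher and 0 lower (median 0.29). Of 7 cytokines, Tnf and Il12b were higher and Il15 lower (median 0.59), with Il12b at 11.8, 8.52 and 8.55 CPM in cluster 7 (2.93 ± 0.43, from 2.08 without sGSN-/- to 3.59 without WT). Il12b passed the filter through cluster 9, as its levels in cluster 7 lay near 10 CPM. Of 11 chemokines, 3 were higher and 2, Ccl3 and Ccl4, lower (median 0.05), and Ccl3 moved from -1.71 to -2.95 without WT and to -1.11 without sGSN-/-Clec9a-/-. Of 12 genes of the Ccr7 programme, 5 were higher and 0 lower (median 0.95), namely Ccl22, Ccl17, Il12b, Marcksl1 and Tbc1d4, while Ccr7 and Fscn1 were below the filter. Of 8 genes of the Cxcl9 programme, 0 were higher and 4 lower (median -1.67), of which Iigp1 and Gbp5 passed the filter through cluster 7 alone, and Cxcl9 itself overlapped (-0.80 ± 0.21). Of 16 survival genes, 5 were higher and 0 lower (median 0.67). Of 10 early cDC1 genes, 0 were higher and 5 lower (median -0.82), and Ifitm2 (-1.01 ± 0.11) was not called without WT (-0.91) or without sGSN-/-Clec9a-/- (-0.99). MHC class II (11 kept, median -0.06), MHC class I (14 kept, median -0.23) and cDC1 marker genes (12 kept, median 0.05) had 0 called. In the marker lists of other cells, Cd209a, Ly6c2, Bst2, Klrd1 and Fcgr1 were among those lower and Mki67 was higher.

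Against the resting cDC1s, the 3499 cells of clusters 0, 2, 3, 5 and 6 together, genes of the NF-kB response were higher in cluster 9, and no interferon-stimulated gene or Ccr7 programme member above the filter was lower. Many of those lower in the earlier comparisons, among them Ccr7, Fscn1, Cd63, Cacnb3 and Ifit3, were below the filter here and could not be called. Of 6417 genes kept, 130 (2.03%) were called higher and 24 (0.374%) lower in cluster 9, around a median of 0.00 for all genes. Of the 5 subunits, 4 were higher and 0 lower (median 1.19), with Nfkb1 at 77.5, 69.9 and 72.9 CPM in the resting cells (1.84 ± 0.11), Relb (1.77 ± 0.14), Nfkb2 (1.19 ± 0.11) and Rel (1.06 ± 0.13, or 0.90 and not called without sGSN-/-). Of the 14 inhibitors and feedback genes, 11 were higher and 0 lower (median 1.73). Nfkbia was at 190.3, 177 and 162 CPM in the resting cells (3.48 ± 0.10), Nfkbiz at 21.2, 18.9 and 20.6 CPM (4.44 ± 0.11) and Tnfaip3 at 47.6, 40.1 and 36.3 CPM (3.303 ± 0.12). Of the 11, Nfkbie (1.01, or 0.88 without sGSN-/-) and Tnip1 (1.17, or 0.65 without WT) each lost the call without 1 library. The 5 largest positive differences at 50 CPM or more were Cxcl10 (5.07 ± 0.26, or 5.77 without WT), Dusp2 (4.58 ± 0.10), Nfkbiz, Cxcl9 (4.23 ± 0.26) and Tnf (3.74 ± 0.18), and Sdc4 (6.12 ± 0.37), below that level, was higher still. Cxcl9 was at 22.1, 16.1 and 12.7 CPM and Sdc4 at 1.51, 0.818 and 1.57 CPM in the resting cells, so Sdc4 was near 0 there, and both were far higher in every cluster 9 library. Il12b was also higher, from 5.25, 6.76 and 5.23 CPM (3.77 ± 0.39, or 3.12 without sGSN-/-).

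Of 20 upstream genes, Cd40 (2.93 ± 0.26) and Tlr2 (1.01 ± 0.30, or 0.53 and not called without sGSN-/-) were higher and Tnfrsf1b (-1.16 ± 0.22) lower (median 0.12). Of 10 costimulatory and inhibitory ligands, Cd40, Cd80, Icam1 (2.82 ± 0.10) and Tnfsf9 (3.17 ± 0.17) were higher and 0 lower (median 0.78). Of 22 immediate early genes, 4 were higher and 0 lower (median 0.40), of which Egr3 (1.002) was not called without WT (0.85) or sGSN-/- (0.95), nor Zfp36 (1.04) without sGSN-/- (0.99). Dusp2 was the only 1 of 11 phosphatases called (median 0.12), and Dnajb1 (1.64 ± 0.26) the only 1 of 11 chaperones (median 0.56). Of 6 cytokines, Tnf and Il12b were higher and 0 lower (median 0.75). Of 11 chemokines, 4 were higher, Cxcl9, Cxcl10, Cxcl2 (2.05) and Ccl22, and 3 lower, Ccl2, Ccl3 and Ccl4 (median 0.77). Survival genes had 6 of 16 higher and 0 lower (median 0.73), the Ccr7 programme 4 of 12 higher and 0 lower (median 0.77), and the Cxcl9 programme 3 of 5 higher and 0 lower (median 2.11). Among the genes that passed the filter through cluster 9 alone were Cxcl10 of the Cxcl9 programme, the cytokine Il12b, Cd40 and Sdc4. Interferon-stimulated genes (9 kept, median 0.28), early cDC1 genes (10 kept, median -0.19), MHC class II (11 kept, median -0.05), MHC class I (14 kept, median 0.08) and cDC1 markers (12 kept, median 0.04) had 0 called. In the marker lists of other cells, Mki67 was higher, having passed the filter through cluster 9 alone, and no other member above the filter was called.

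Of the 24 genes lower than in the resting cells, 17 were still called without WT, 21 without sGSN-/- and 17 without sGSN-/-Clec9a-/-. The 5 largest negative differences at 50 CPM or more were Gpr171 (-1.20 ± 0.15), Zdhhc23 (-1.19 ± 0.17), a palmitoyltransferase, Plac8 (-1.18 ± 0.16), and Ccl7 (-1.11 ± 0.19) and Ccl2 (-1.09 ± 0.19), which attract monocytes. Gpr171 (-0.98), Zdhhc23 (-0.97), Ccl7 (-0.96) and Ccl4 (-1.03, then -0.83) were not called without sGSN-/-Clec9a-/-, and Ccl2 (-0.90) was not without sGSN-/-. Ccl3 kept its direction and moved from -1.65 to -2.68 without WT.

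Among clusters 0 to 10, cluster 9 had the highest mean level of Nfkbiz, Dusp2, Tnfaip3, Nfkbia, Nfkbid, Zc3h12a, Tnf, Phlda1, Icam1, Tnfsf9, Egr1, Ier2 and Zfp36, and for each of these genes its libraries were separated from those of every other of these clusters. It was highest also for Jun, Dnajb1, Egr3, Fosb and Sdc4, without that separation, since Jun and Dnajb1 overlapped with cluster 3, Egr3 and Fosb with cluster 6, and Sdc4 with clusters 8 and 10. For Nfkb1, Rel, Birc3, Marcksl1, Tbc1d4 and Cd83 it came after cluster 8, and for Nfkb1, Birc3 and Marcksl1 the libraries of these 2 clusters overlapped. Il12b was second to cluster 8 too, at 85.7 ± 67.9 CPM (SD, n = 3) against 1856 ± 721 CPM, and overlapped with cluster 10 at 36.6 ± 44.3 CPM. Cxcl9, at 332 ± 179 CPM, came after clusters 10 (4832 ± 130.1 CPM), 7 (542 ± 40.4 CPM) and 8 (516 ± 124 CPM), and overlapped with clusters 7 and 8.

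Across 2462 genes with a mean of at least 50 CPM, the distance between clusters was measured as the median absolute difference of log2(CPM + 1) within each library. Cluster 9 lay closest to cluster 3, a resting cluster, at 0.156, 0.236 and 0.204 in the 3 libraries (mean 0.198 ± 0.0403, SD). Clusters 2 (0.235 ± 0.0224) and 0 (0.246 ± 0.0273), also resting, came next, and neighbours in this order mostly overlapped in their libraries. Then followed clusters 7 (0.305 ± 0.0376), 4 (0.347 ± 0.0275), 6 (0.360 ± 0.0107), 5 (0.375 ± 0.0392), 1 (0.385 ± 0.0166) and 10 (0.407 ± 0.00943). Farthest was cluster 8, at 0.509, 0.503 and 0.423 (mean 0.479 ± 0.0478). The 3 nearest clusters were thus resting ones. Cluster 8, next to cluster 9 in Nfkbiz, Dusp2 and Tnfaip3, was the most distant of these clusters. By their means the resting clusters 6 and 5 lay farther than clusters 7 and 4. In the sGSN-/- library, however, cluster 6 (0.348) was nearer than cluster 4 (0.376). Sums of few UMIs give larger distances by counting noise alone, so cluster size moves with this measure. With every sum thinned to the smallest, a setting chosen after the distances had been seen, clusters 3 and 8 were again the nearest and the farthest. In the sGSN-/- library cluster 6 (0.383) was then nearer than clusters 7 (0.408) and 4 (0.416).

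**Figure D3:**
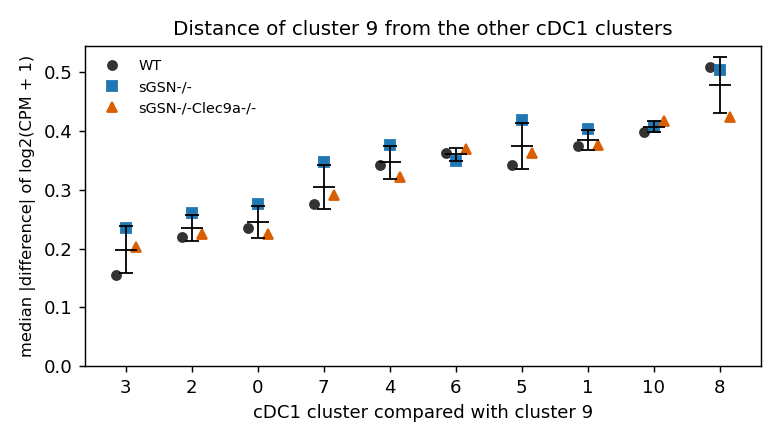
Distance of cluster 9 from each of the other cDC1 clusters 0 to 10, as the median absolute difference of log2(CPM + 1) over 2462 genes, with 1 point for each of the 3 libraries and bars for the mean ± SD. Cluster 3 was nearest and cluster 8 farthest.

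Single cells of cluster 9 shared the 3 markers widely. At least 1 UMI of Nfkbiz was found in 148 of 162 cells (91.4%), of Dusp2 in 154 of 162 cells (95.1%) and of Tnfaip3 in 151 of 162 cells (93.2%). In the other cDC1s the shares were 21.0%, 30.9% and 29.9%, at a median of 13480.5 UMIs per cell against 14033 in cluster 9. NK cell barcodes from outside the table, taken as 2851 barcodes with UMIs of Ncr1, Klrb1c and Nkg7 and none of Xcr1 and with a median of 8987 UMIs, held the 3 genes at 36.7%, 90.0% and 79.2%. NK cell barcodes do not lack these transcripts, so for these 3 genes they give no background share of free RNA. After thinning of every cell to 3900 UMIs the shares were 69.0%, 82.3% and 62.7% of 158 cluster 9 cells and 7.85%, 14.6% and 13.3% of 5360 other cDC1s. The contrast between cluster 9 and the other cells was thus present at equal depth, although it follows in part from the clustering of these same counts.

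All 3 markers were found together in 134 of 162 cluster 9 cells (82.7%), exactly 2 in 23 cells, 1 in 5 and none in 0, against 3.93% of the other cDC1s with all 3 and 41.7% with none. In cluster 8 all 3 were found in 16.1% of 255 cells, at a lower median depth of 10867 UMIs. Nfkbia was present in 162 of 162 cells (100%) and 70.0% of the other cDC1s, and Icam1 in 152 of 162 cells (93.8%) and 52.6%. The tenth of cluster 9 cells with the most UMIs of a gene, 17 cells, held 28.3% of the Nfkbiz UMIs and 61.3% of the Tnf UMIs. Tnf was found in 78 of 162 cells (48.1%), against 10.2% of the other cDC1s and 9.86% of the NK cell barcodes. The markers of the label were thus found in most of the cells, whereas Tnf transcripts were concentrated in fewer of them. The cells were grouped on these same counts, so the wide sharing of the markers follows in part from the grouping.

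Genes of the activated programmes divided cluster 9 further. Cxcl9 was found in 83 of 162 cells (51.2%), against 1.19% of the NK cell barcodes, and Cxcl10 in 72 of 162 cells (44.4%), against 17.9%. Cd40 was found in 53 of 162 cells (32.7%), against 3.86% of the NK cell barcodes. Il12b was found in 19 of 162 cells (11.7%), against 6.29% of the other cDC1s, 69.8% of cluster 8 and 0.666% of the NK cell barcodes. Ccr7 was found in 5 of 162 cells (3.09%), against 3.12% of the NK cell barcodes. These barcodes were shallower, at a median of 8987 UMIs against 14033 in cluster 9. Whether NK cells transcribe Ccr7 or Tnf themselves was not tested, so these shares are no measured background for either gene. Fscn1 was found in 0 of 162 cells, which allows a share of up to 1.85% of cells with a UMI. Pairs of genes were then compared within cluster 9, as pairs chosen after these shares had been seen. Tnf was found in 15 of 19 cells with Il12b and 63 of 143 without, Cxcl9 in 15 of 19 and 68 of 143, and Ccl22, a T cell attractant, in 7 of 19 and 20 of 143. Cells with Il12b were deeper, at a median of 15731 UMIs against 13865, and cells of 3 libraries were pooled although Il12b and Cxcl9 were both highest in sGSN-/-, so the part of depth and of the library in these shares was not tested. Ccr7 was found in 1 of the 19 cells with Il12b. Cxcl10 was found in 51 of 83 cells with Cxcl9 (median 14440 UMIs) and 21 of 79 without (median 13865 UMIs). Other pairs did not run together. Cxcl9 was found in 35 of 78 cells with Tnf and 48 of 84 without, Relb in 10 of 19 with Il12b and 82 of 143 without, and Isg15 in 34 of 83 with Cxcl9 and 31 of 79 without.

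Between genotypes, the markers of cluster 9 were present at similar levels, while Il12b, Isg15, Irf7, Hspa1a and Hspa1b were among the genes that differed most between WT and sGSN-/-. With 1 library a genotype there is no test between them, and each level carries an exact Poisson 95% interval. Genotype cannot be told apart from the sex mix or the handling of its pool. Nfkbiz was at 376 CPM (392 UMIs, 340.1 to 416) in WT, 494 CPM (274 UMIs, 437 to 556) in sGSN-/- and 437 CPM (295 UMIs, 388 to 489) in sGSN-/-Clec9a-/-. Dusp2 was at 878 CPM (914 UMIs, 822 to 937), 741 CPM (411 UMIs, 671 to 816) and 728 CPM (492 UMIs, 665 to 796). Tnfaip3 was at 348 CPM (362 UMIs, 313 to 385), 420.0 CPM (233 UMIs, 368 to 478) and 443 CPM (299 UMIs, 394 to 496). The interval of WT lay below that of sGSN-/- for Nfkbiz and below that of sGSN-/-Clec9a-/- for Tnfaip3, and above both for Dusp2. These differences were small beside the distance of every library from the other cDC1s.

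For sGSN-/- against WT, 11 of 1407 genes at 100 CPM or more in either library (0.782%) were more than 2-fold higher and 9 (0.64%) more than 2-fold lower. The median absolute log2 ratio was 0.18 in cluster 9 and 0.08 for the same genes in the far larger sums of the other cDC1s. Il12b, Tnip3, Isg15, Irf7, Ccl2 and Sertad1 reached 100 CPM in their higher library alone. Their place among the largest ratios follows in part from this limit. Il12b was at 32.7 CPM (34 UMIs, 22.6 to 45.6) in WT and 162 CPM (90 UMIs, 130.4 to 199) in sGSN-/-, a ratio of 4.97 (3.31 to 7.60), and at 62.2 CPM (42 UMIs, 44.8 to 84.0) in sGSN-/-Clec9a-/-. The other largest ratios to WT were those of Tnip3, 3.38 (2.20 to 5.26), Rgs1, a regulator of G protein signalling, 3.27 (2.71 to 3.95), Isg15, 2.93 (2.07 to 4.19), and Irf7, 2.48 (1.84 to 3.35). In the other cDC1s the log2 ratios of these genes were smaller, at 0.54 for Il12b, 0.37 for Tnip3, 0.47 for Rgs1, 0.42 for Isg15 and 0.36 for Irf7. Cluster 9 of the sGSN-/- library was the high 1 of the 3 for Il12b, but its UMIs came from 8 of 40 cells (20%), against 5 of 67 cells (7.46%) in WT, and the Poisson interval does not cover the spread between cells.

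Lower in sGSN-/- than in WT were Ccl2, with a ratio of 0.361 (0.228 to 0.553), the heat shock proteins Hspa1a, 0.434 (0.396 to 0.476), and Hspa1b, 0.435 (0.377 to 0.50035), and Sertad1, 0.443 (0.274 to 0.690). The other cDC1s had like log2 ratios for Hspa1b (-1.03) and Hspa1a (-0.81), and smaller ones for Ccl2 (-0.37) and Sertad1 (-0.02). The heat shock genes thus differed in the other cDC1s too and not in cluster 9 alone.

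For sGSN-/-Clec9a-/- against sGSN-/-, 2 of 1395 genes (0.143%) were more than 2-fold higher and 13 (0.932%) more than 2-fold lower, with a median absolute log2 ratio of 0.19 against 0.09 in the other cDC1s. Clec9a itself had 0 UMIs in the 55 cluster 9 cells of sGSN-/-Clec9a-/-, a level of up to 4.44 CPM by the floor of 3 UMIs, and 225 CPM (125 UMIs, 188 to 268) in sGSN-/-. At least 1 UMI of Clec9a was found in 83.6% of WT and 80% of sGSN-/- cells of cluster 9, so the Clec9a part of the genotype label held in these cells. The next lowest ratios were those of Sdc4, 0.251 (0.155 to 0.394), Jdp2, a transcriptional repressor, 0.254 (0.157 to 0.399), Rgs1, 0.305 (0.245 to 0.379), and Grasp, 0.310 (0.218 to 0.433). The highest were those of Ppp1r10, a phosphatase subunit, 2.30 (1.63 to 3.299), Gm42418, a locus that overlaps ribosomal RNA, 2.23 (2.17 to 2.29), Cxcl2, 1.95 (1.27 to 3.05), Taf1d, 1.79 (1.29 to 2.51), and Aprt, 1.79 (1.21 to 2.69). Gm42418 had a log2 ratio of 0.93 in the other cDC1s as well, and Jdp2 of -1.07, whereas Sdc4 (-0.34), Rgs1 (-0.44), Grasp (-0.36), Ppp1r10 (-0.14), Cxcl2 (0.30), Taf1d (-0.02) and Aprt (0.03) had ones nearer to 0 there. Of the genes named in this contrast, all but Rgs1 and Gm42418 reached 100 CPM in their higher library alone, so their ratios follow in part from that limit.

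The genes higher in cluster 9 than in the other cDC1s were also examined for a shared sequence. Promoters of 250 bases before to 50 after the start of each transcript were taken from RefSeq (build GRCm38.p6) and searched on both strands for the NF-kB consensus, the kB motif of 10 letters. Of the 113 genes higher in cluster 9, 87 matched an entry and 20 of the 87 (23.0%) held the motif in at least 1 promoter. Of the 74 lower genes, 56 matched and 4 of these (7.14%) held it. Among all kept genes 343 of 5191 (6.61%) did, and 1480 of all 32851 promoters (4.51%). Counted over promoters in place of genes, the shares were 17.8% of 118 for the higher genes, 5.88% of 68 for the lower genes and 5.55% of 6672 for all kept genes. Of the 5 subunits, Nfkb2 and Rel held matches, and of the 14 inhibitors and feedback genes Nfkbia, Nfkbid, Nfkbie, Bcl3, Tnfaip3, Tnip1, Tnip3 and Cyld did, so the motif was present both in members that were higher and in members that were not. The promoters of Dusp2, Tnf and Icam1 held no match within this window. In the promoter set used, no promoter was matched to Nfkbiz, Nfkb1, Relb, Phlda1, Tnfsf9, Cd40, Ikbkb and Tlr4, so these genes were not searched. A match is a description of letters and not of a bound site.

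Starts are those of single RefSeq transcripts, and the ones used for Tnfaip3, Nfkbid, Tnip3 and Sdc4 lie within the GENCODE span of the gene. The bases before these starts thus fall wholly or almost wholly inside the gene. The 250 bases before the start are shown for 5 genes that were called higher in cluster 9 than in the other cDC1s and held a match. They are Nfkbia at chr12:55492648-55492897 on the minus strand, Tnfaip3 at chr10:19015411-19015660 on the minus strand, Nfkbid at chr7:30422156-30422405 on the plus strand, Tnip3 at chr6:65590148-65590397 on the plus strand and Sdc4 at chr2:164443189-164443438 on the minus strand, each written 5′ to 3′ along the gene with the motif in capitals.
Nfkbia: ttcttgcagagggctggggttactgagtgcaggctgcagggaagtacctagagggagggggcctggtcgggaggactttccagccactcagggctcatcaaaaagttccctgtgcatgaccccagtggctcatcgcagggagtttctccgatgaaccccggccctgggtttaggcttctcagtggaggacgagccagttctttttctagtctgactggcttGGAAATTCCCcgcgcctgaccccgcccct
Tnfaip3: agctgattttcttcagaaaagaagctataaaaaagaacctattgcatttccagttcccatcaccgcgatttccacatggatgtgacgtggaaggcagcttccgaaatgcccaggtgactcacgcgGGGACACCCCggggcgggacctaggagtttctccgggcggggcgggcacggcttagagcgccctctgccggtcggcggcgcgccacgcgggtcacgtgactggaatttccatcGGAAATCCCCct
Nfkbid: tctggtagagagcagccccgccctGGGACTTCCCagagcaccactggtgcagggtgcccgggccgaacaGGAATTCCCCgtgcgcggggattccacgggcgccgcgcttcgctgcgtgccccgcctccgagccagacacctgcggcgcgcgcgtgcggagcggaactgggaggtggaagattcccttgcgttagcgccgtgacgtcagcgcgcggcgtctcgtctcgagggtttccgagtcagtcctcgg
Tnip3: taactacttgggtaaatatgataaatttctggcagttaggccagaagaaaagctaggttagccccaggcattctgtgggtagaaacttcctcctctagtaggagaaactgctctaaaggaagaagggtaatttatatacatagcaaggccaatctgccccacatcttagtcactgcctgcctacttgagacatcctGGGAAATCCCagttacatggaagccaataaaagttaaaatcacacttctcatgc
Sdc4: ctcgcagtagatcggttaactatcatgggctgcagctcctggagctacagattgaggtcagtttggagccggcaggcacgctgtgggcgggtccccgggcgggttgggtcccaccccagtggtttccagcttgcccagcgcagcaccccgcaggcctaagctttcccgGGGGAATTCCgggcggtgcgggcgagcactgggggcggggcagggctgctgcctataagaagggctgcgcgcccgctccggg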

How the data were processed

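The deposited matrices hold raw UMI counts per gene and barcode, which the authors made with Cell Ranger 6.0.1 on mm10 (GRCm38), and the deposited table of cDC1s holds counts of UMIs and genes per cell, library, barcode and cluster from an integration in Seurat (4.0.0 in the sample records, while the study's methods name another version), after the authors had removed dying cells and cells rich in mitochondrial RNA. The UMIs per cell in the table differed from the matrix sums by at most 34. The members and gene lists were chosen with earlier results of these data known.

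UMIs were summed per library and group and fitted with edgeR 4.0.16 in R 4.3.3 (TMM factors, quasi-likelihood) for fold changes and SE, used as descriptions. DESeq2 1.42.0 served as an alternative. Genes were kept at a mean of 10 CPM or more over the 6 sums. The 3 libraries served as replicates of a cluster. Sums paired by library were checked: log2 deviations of cluster 9 and the reference correlated across genes at 0.231, 0.168 and 0.289 against the other cDC1s, 0.0462, 0.0434 and 0.0456 against cluster 8, 0.104, 0.0520 and 0.175 against cluster 7 and 0.218, 0.129 and 0.302 against the resting cDC1s. The pairs share a library by design, and fits with the library as a block are given as an alternative.

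Doublets were scored with Scrublet in scanpy 1.11.5 under Python 3.11.15, and the top 6% of barcodes in each library were marked and kept, with an alternative that drops them. Cells were thinned to 3900 UMIs, the 5th percentile of cDC1s, which left out 288 cells, 4 of them in cluster 9. Intervals and limits at 0 come from scipy 1.17.1. The steps were tested on simulated data. Gene positions are those of GENCODE.

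Named genes were the study's markers for its cDC1 states, all members of the NF-kB lists, the called and the most abundant members of the other lists, the 10 largest and 10 smallest called fold changes against the other cDC1s at 50 CPM or more, the 5 largest and 5 smallest against clusters 8 and 7 and the resting cells, and genes from the 5 largest and 5 smallest genotype ratios with 1 CPM added. Mki67 and Top2a, Ccl22, Cd70 and the other list members named without a value were chosen after their values were seen. Alternatives covered scaling, filters, doublets, depth, the weight of the other clusters, the fold and a threshold of 0.05 on adjusted p. Cluster 11, rich in mitochondrial RNA, was left out of the order of clusters.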

Additional observations from a re-analysis of the deposited data

How the results depend on the processing

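Counts of genes called higher and lower in cluster 9 moved mainly with the filter and the threshold, as fewer or more genes are then counted. Of 108 alternative counts, 65 were within 1.5 times the count in the report and 43 were not. With a mean of at least 50 CPM they were 59 and 14 against the other cDC1s, 227 and 329 against cluster 8, 76 and 126 against cluster 7 and 63 and 9 against the resting cDC1s. Without a filter they were 275 and 2718, 1128 and 1304, 481 and 774 and 303 and 1859 in the same order. With edgeR's filterByExpr they were 296 and 471 against the other cDC1s and 278 and 237 against the resting cDC1s. A fold of at least 3 gave 35 and 27, 251 and 480, 55 and 129 and 49 and 7. An adjusted p under 0.05, in edgeR and without the demand for separate libraries, gave 529 and 363, 1049 and 1298, 677 and 833 and 405 and 140. With all cells thinned to 3900 UMIs, 160 genes were lower than in the other cDC1s, 310 higher than in cluster 7 and 104 lower than in the resting cDC1s. Thinned sums are smaller and noisier, and the cause was not tested further. Giving the other clusters equal weight gave 68 and 127, since small clusters such as 8 and 10 then count for more. This setting also reversed Cxcl9, to -0.88, and Cd40, to -0.0714, and took the inhibitors and feedback genes called higher from 8 to 6 of 14.

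Leaving out each library in turn gave 124 to 146 higher and 85 to 93 lower genes against the other cDC1s, 657 to 789 and 813 to 920 against cluster 8, 224 to 279 and 313 to 343 against cluster 7, and 134 to 163 and 34 to 44 against the resting cDC1s. Of the last, 44 were lower without WT, 37 without sGSN-/- and 34 without sGSN-/-Clec9a-/-, against 24 with all libraries. Groups of 2 libraries overlap less often. With the library as a replicate block the counts were 113 and 72, 638 and 774, 203 and 301 and 128 and 23.

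Distances with every sum thinned to the smallest, chosen after seeing the data, were 0.284 for cluster 3, 0.321 for cluster 0, 0.321 for cluster 2, 0.378 for cluster 7, 0.398 for cluster 4, 0.413 for cluster 6, 0.424 for cluster 5, 0.433 for cluster 10, 0.446 for cluster 1 and 0.532 for cluster 8. All 10 were larger, as counting noise adds to each, and clusters 0 and 2 and clusters 1 and 10 changed places. The shares of cluster 9 among cDC1s stayed within their intervals in 9 alternatives.

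Among alternative values of single named genes, 4239 moved by less than the spread between libraries, 222 moved more and 2 reversed. Limits are the single library a genotype, the 162 cells with 40 in sGSN-/-, clusters drawn from the same counts, and depth, since a gene with 0 UMIs over cluster 9 is bounded only by the floor of 3 UMIs.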
